A study of Mus musculus with 19 samples.

Results

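The genes described here are 8 imprinted genes of the mouse: H19, Meg3, Rian, Mirg, Dlk1, Peg3, Mest and Grb10. They were chosen by name, with earlier results of these data known, out of 35598 genes to which the transcripts of the deposited files could be assigned. RNA was measured in 19 libraries of primary myoblasts from mouse hind-limb muscle, at 3 stages of differentiation in culture. The 2 genotype labels are WT, wild type, and Glud1KO, deficient in Glud1, which encodes the mitochondrial enzyme glutamate dehydrogenase. All groups are cultured primary cells, and the labels name no other agent. WT proliferating myoblasts at 24 h had 3 libraries, WT differentiated myotubes at 48 h had 3 and WT fused myotubes at 72 h had 4. Glud1KO had 3, 2 and 4 libraries at the same stages. The labels number biological replicates but do not say whether they came from separate animals, so p-values measure the spread between these libraries. How Glud1 was removed and the animals' ages are not given in the sources used here. Counts of Glud1 itself were not called different by genotype label at any stage (log2 fold changes -0.02, -0.09 and -0.02, with edgeR adjusted p of 0.849, 0.193 and 0.748). On the length-corrected TPM scale Glud1 was lower in the Glud1KO libraries, at 135.9 to 142 against 163 to 175 TPM in myoblasts. The share of its counts on transcript Glud1-202 was lower too, at 5.96% to 6.44% against 11.1% to 11.9%. The names under which the libraries were deposited mark both groups as KO, so the genotype is used as the labels give it, and Glud1KO means the libraries so labelled.

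Imprinted genes are transcribed mainly or only from the allele inherited from the mother or from the father, under control of DNA methylation set in the germ line. H19 and Igf2 share an imprinting control region and enhancers, H19 being a maternally expressed non-coding RNA and Igf2 a paternally expressed growth factor. In the Dlk1-Dio3 cluster, the non-coding RNAs Meg3, Rian and Mirg are maternally expressed, and Dlk1, Rtl1 and Dio3 are paternally expressed protein genes. Peg3 and Mest are paternally expressed, and Grb10 is maternally expressed outside the nervous system. H19, Dlk1, Meg3 and Igf2 are known for activity in developing or regenerating muscle. No values by parental allele were used, so each level below is the sum over both alleles, and in bulk samples fewer cells of a type and less RNA per cell cannot be told apart.

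Positions are given in build GRCm38 with the GENCODE M21 annotation. The 3 non-coding genes of the Dlk1-Dio3 cluster lie in a row on the plus strand of chromosome 12, Meg3 at chr12:109541001-109571726, Rian at chr12:109603940-109661716 and Mirg at chr12:109729764-109749460, after Dlk1 at chr12:109452823-109463336. H19 lies at chr7:142575529-142578143 and Peg3 at chr7:6703892-6730431, both on the minus strand. Mest lies at chr6:30723547-30748465 on the plus strand and Grb10 at chr11:11930508-12038683 on the minus strand. The promoter table of RefSeq (build GRCm38.p6) held entries for 7 of the 8 genes. The sequences of the Meg3 and Peg3 promoters are shown because they were the 2 members with the cyclic AMP response element TGACGTCA in the 250 bases before an annotated start. The Meg3 window is chr12:109540746-109540995 on the plus strand, and the Peg3 window is chr7:6730420-6730669 on the minus strand. Capitals mark TGACGTCA and, in Meg3, TATAAA.
Meg3 promoter: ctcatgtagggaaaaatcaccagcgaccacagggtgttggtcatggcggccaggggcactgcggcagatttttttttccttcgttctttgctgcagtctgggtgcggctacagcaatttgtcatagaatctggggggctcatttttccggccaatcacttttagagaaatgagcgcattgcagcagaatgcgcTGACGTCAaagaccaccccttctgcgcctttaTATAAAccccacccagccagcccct
Peg3 promoter: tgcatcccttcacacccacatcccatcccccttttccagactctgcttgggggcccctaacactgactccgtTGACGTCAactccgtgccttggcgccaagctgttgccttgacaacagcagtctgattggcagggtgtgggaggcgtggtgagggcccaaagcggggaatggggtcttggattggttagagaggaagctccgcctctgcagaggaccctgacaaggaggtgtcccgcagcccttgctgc
Among 32851 RefSeq promoter windows of this length, 1.55% held TGACGTCA and 12.4% held TATAAA on either strand. In Meg3 the first base of TGACGTCA lies 57 bases before the start and that of TATAAA 25 bases before it, where an overlapping match also reads on the other strand. In Peg3 the first base of TGACGTCA lies 178 bases before the start.

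Mest has 3 RefSeq starts, the last pair 3 bases apart, and an upstream and a downstream window are shown because the counts could be divided between them. The upstream window is chr6:30733256-30733505 and the downstream window is chr6:30737800-30738049, both on the plus strand, and the downstream window lies inside the body of the upstream-start transcript. Capitals mark CG dinucleotides, of which the upstream window holds 7 and the downstream window 14, against a median of 6 over all RefSeq windows.
Mest upstream promoter: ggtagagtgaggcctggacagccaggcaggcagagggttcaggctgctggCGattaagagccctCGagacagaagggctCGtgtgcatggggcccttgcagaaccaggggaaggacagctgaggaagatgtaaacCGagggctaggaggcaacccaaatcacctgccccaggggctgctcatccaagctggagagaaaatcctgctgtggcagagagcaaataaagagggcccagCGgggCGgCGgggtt
Mest downstream promoter: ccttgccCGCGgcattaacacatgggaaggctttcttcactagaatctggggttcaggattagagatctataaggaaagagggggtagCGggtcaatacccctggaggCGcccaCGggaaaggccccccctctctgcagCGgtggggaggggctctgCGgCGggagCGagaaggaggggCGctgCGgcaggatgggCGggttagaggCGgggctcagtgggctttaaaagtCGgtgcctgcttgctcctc

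Of the 8 genes, 5 contain annotated miRNA genes, and 39 mature miRNAs of 21 such genes were found in the RefSeq table. Mirg alone holds 14 of these genes, Rian 3 with a sequence, Meg3 2, and H19 and Mest 1 each. Rian also contains 13 annotated snoRNA genes. The libraries were made with a kit for polyadenylated RNA and count host transcripts, so mature miRNAs were not measured here. The sequences below identify what each host carries. Capitals mark the seed, bases 2 to 8 from the 5′ end.
mmu-miR-675-5p (H19): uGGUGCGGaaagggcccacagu
mmu-miR-675-3p (H19): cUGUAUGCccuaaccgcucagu
mmu-miR-770-5p (Meg3): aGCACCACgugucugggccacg
mmu-miR-370-3p (Rian): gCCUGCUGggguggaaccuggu
mmu-miR-341-3p (Rian): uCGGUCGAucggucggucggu
mmu-miR-410-3p (Mirg): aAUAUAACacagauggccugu
mmu-miR-377-3p (Mirg): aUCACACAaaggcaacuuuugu
mmu-miR-453 (Mirg): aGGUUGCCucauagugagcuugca
mmu-miR-496a-5p (Mirg): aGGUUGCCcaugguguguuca
mmu-miR-335-5p (Mest): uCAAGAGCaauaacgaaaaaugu
The seed GGUUGCC of miR-453 and miR-496a-5p, both from Mirg, was the only seed shared by 2 of the 39 mature sequences.

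Libraries held 16168131 to 30742634 estimated counts. Of the 35598 genes, 15123 passed the filter on low counts and were tested, among them 7 of the 8 genes described, Dlk1 being too low. The first principal component of all tested genes held 73.5% of the variance and ordered the libraries by stage. Glud1KO differentiated myotubes, at 66.9 to 67.8 on that component, lay between WT differentiated myotubes (35.4 to 39.8) and WT fused myotubes (98.9 to 101.5). On the second component, with 15.1% of the variance, they lay at -95.4 and -92.5. WT differentiated myotubes lay there at -93.1 to -84.7 and WT fused myotubes at 36.5 to 48.4. Markers of differentiated muscle (6 genes, all tested) summed to 821 to 962 CPM (gene counts scaled to library size) in WT myoblasts and to at least 30282 CPM in each WT myotube library. Markers of endothelium, macrophages, adipocytes and Schwann cells each summed to at most 2.70 CPM a list in each library. Fibroblast markers summed to 286 to 294 CPM in WT myoblasts and to 7.49 to 8.31 CPM in WT fused myotubes, and smooth muscle markers to 36.8 to 41.1 CPM and to at most 0.863 CPM. In myoblasts these sums were almost wholly Col3a1 (282 CPM) and Rgs5 (38.7 CPM), and the lists did not move as one: Pdgfra rose from 1.16 to 2.78 CPM between the same WT stages.

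The 7 tested genes all differed between WT myoblasts and differentiated myotubes, 5 being higher and 2 lower, where 85% of all tested genes were called (42.4% higher, 42.6% lower). Between WT differentiated and fused myotubes all 7 fell, where 75.1% of all genes were called (37.4% higher, 37.7% lower). In Glud1KO the counts were again 5 higher and 2 lower in the first step (83.7% of all genes called, 41.3% higher and 42.5% lower) and 7 lower in the second (70.2% called, 35.8% higher and 34.4% lower). Their median log2 change in the first step was 1.67 in WT and 2.23 in Glud1KO, beside 0.02 and -0.0038 over all genes, and in the second -1.34 and -1.14, beside -0.01 and 0.02. From myoblasts to fused myotubes, 2 rose and 4 fell in WT, where 85.5% of all genes were called (42.2% higher, 43.4% lower). In Glud1KO, 3 rose and 4 fell, where 87.2% were called (42.7% higher, 44.5% lower). The plot of CPM by library shows that the 7 tested genes fell together at fusion but differed in profile before it.

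**Figure D1:**
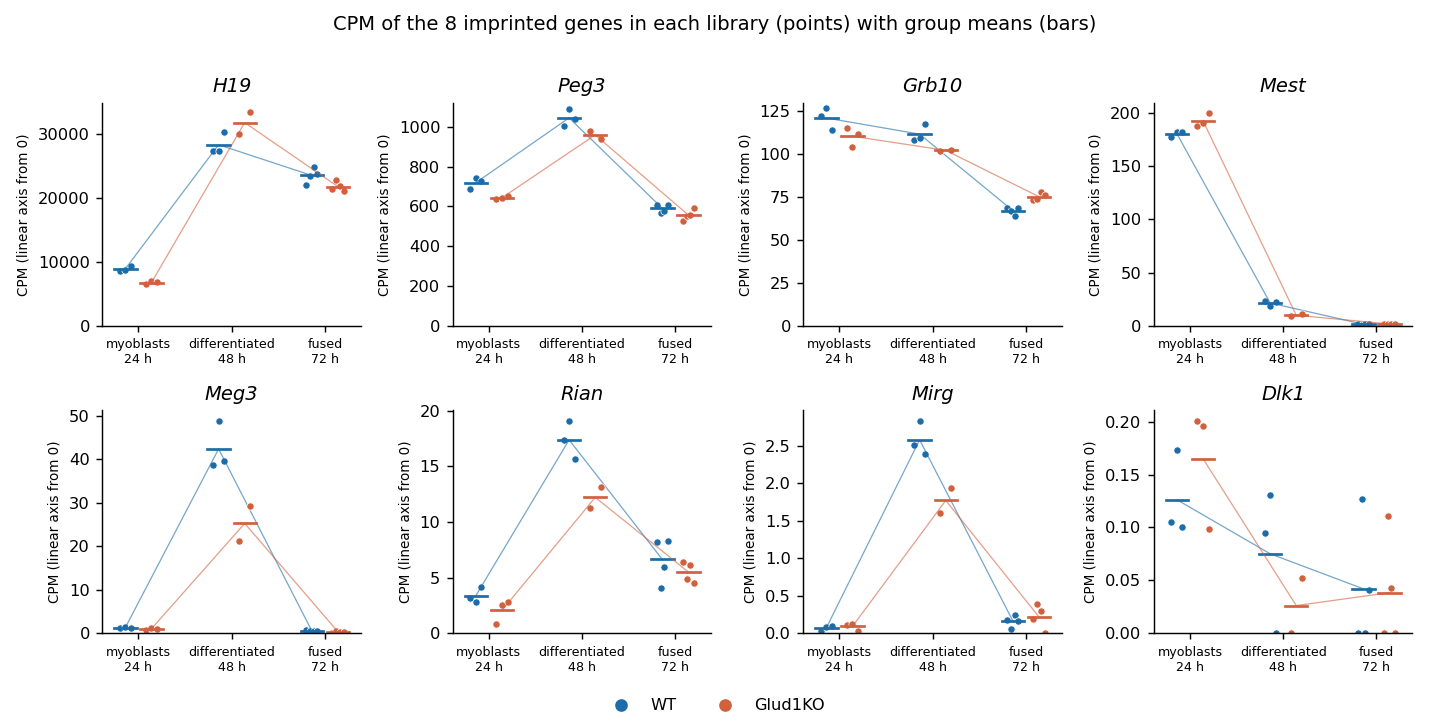
CPM of each of the 8 genes (linear vertical axes from 0) in each library, by stage, with WT in blue and Glud1KO in orange; points are libraries and horizontal bars, joined by lines, are group means. H19, Peg3, Meg3, Rian and Mirg peak at 48 h, Mest falls from 180.5 CPM in WT myoblasts to 1.42 CPM in WT fused myotubes, and Dlk1 is at most 0.201 CPM in a library.

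H19, the maternally expressed non-coding RNA and host of miR-675, was by far the most abundant of the 8 genes. On the TPM scale it stood at 6271 ± 190 (SD, n = 3) in WT myoblasts, 8th of all genes, and it was 3rd in WT differentiated myotubes and 4th in WT fused myotubes. It took up 0.995% to 1.07% of all counts in WT myoblasts and 2.65% to 2.88% in WT differentiated myotubes. In CPM, the WT myoblast libraries stood at 8627, 8760 and 9374, the differentiated libraries at 27405, 27413 and 30324, and the fused libraries at 22088, 23554, 24838 and 23754. The 3 WT stages did not overlap. H19 rose by 1.67 ± 0.059 (log2, SE) in the first step (adjusted p = 5.37e-20) and fell by 0.27 in the second (adjusted p = 6.37e-05). The transcript H19-202, of 5 exons, held 94.3% to 95.8% of the gene's counts in WT myoblasts and a mean of 95.2% in WT fused myotubes.

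In Glud1KO, H19 stood at 6485, 6999 and 6834 CPM in myoblasts, below each WT myoblast library. The difference was -0.40 ± 0.057 (log2, SE), with an adjusted p of 2.15e-05. Markers of differentiated muscle moved with it: 6 of 6 were called lower in Glud1KO myoblasts, where 6.69% of all tested genes were called lower. They summed to 499 to 569 CPM, against 821 to 962 CPM in WT. Among them Myog, a myogenic regulator, stood at 73.5 against 114 CPM, and Myh3, embryonic myosin, at 117 against 221 CPM. Their part in the myoblast differences of H19, Igf2 and Peg3 was not tested. Differentiated Glud1KO libraries stood at 30100 and 33589 CPM, overlapping the WT range, and the difference of 0.17 was not called (adjusted p = 0.0574). Under the alternatives that difference ran from 0.08 to 0.24, and it was called in 6 of 13 of them, among these without the third WT (0.22, adjusted p = 0.0198) or the first Glud1KO library (0.24, adjusted p = 0.0251). Fused Glud1KO libraries stood at 21474, 22823, 21854 and 21095 CPM, again overlapping WT (-0.11, adjusted p = 0.154). H19 ranked 18th by TPM in Glud1KO myoblasts, 3rd in Glud1KO differentiated myotubes and 5th in Glud1KO fused myotubes.

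Igf2, the growth factor gene next to H19, changed in the same directions but by other amounts. Its WT mean was 692 ± 32.8 CPM in myoblasts (SD, n = 3), 6649 ± 350 in differentiated myotubes (n = 3) and 3309 ± 209 in fused myotubes (n = 4). In Glud1KO myoblasts it was at 319, 360 and 378 CPM, below the WT libraries at 671, 674 and 729 CPM (log2 difference -0.97 ± 0.064, adjusted p = 2.41e-11). The ratio of H19 to Igf2 counts within a library was 12.9 ± 0.077 (SD, n = 3) in WT myoblasts and 19.3 ± 1.13 (n = 3) in Glud1KO myoblasts, without overlap. It was 4.27 in WT and 4.32 in Glud1KO differentiated myotubes, and 7.13 in WT and 6.71 in Glud1KO fused myotubes, with overlapping ranges in both stages. The plot of ratios within a library shows the labels apart for this pair in myoblasts and together afterwards.

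**Figure D2:**
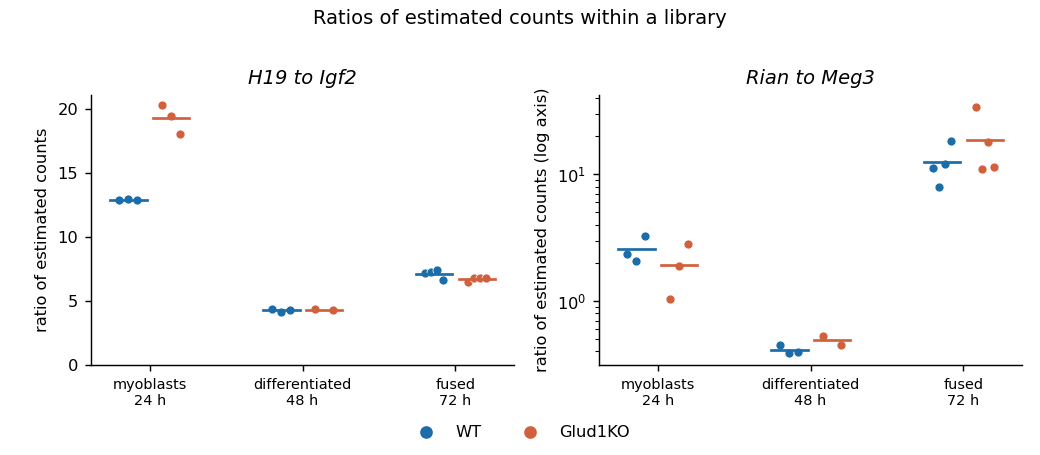
Ratio of estimated counts of H19 to Igf2 (left, linear axis from 0) and of Rian to Meg3 (right, log axis) within each library, by stage, WT in blue and Glud1KO in orange; points are libraries and bars are group means. H19 to Igf2 is 12.9 in WT and 19.3 in Glud1KO myoblasts, and Rian to Meg3 is lowest at 48 h and highest at 72 h in both.

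Meg3, the first non-coding RNA of the Dlk1-Dio3 cluster and host of miR-770, was high at 48 h and low on either side. WT myoblasts stood at 1.34, 1.38 and 1.27 CPM, from 32 to 38 counts a library. WT differentiated myotubes stood at 38.7, 48.8 and 39.7 CPM, from 816 to 1129 counts, and WT fused myotubes at 0.731, 0.508, 0.493 and 0.453 CPM, from 8 to 16 counts. The 3 stages did not overlap: Meg3 rose by 4.99 ± 0.14 (log2, SE, adjusted p = 4.76e-22) and then fell by 6.25 (adjusted p = 3.5e-22), to a level 1.26 below that of myoblasts on the log2 scale (adjusted p = 0.000451). From pooled counts the ratio of differentiated to myoblast WT libraries was 31.9, with an exact 95% interval of 26.4 to 39.1 that covers counting error only.

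In Glud1KO, Meg3 was also highest at 48 h, at a lower level than in WT. They stood at 0.773, 1.34 and 1.01 CPM in myoblasts, 21.2 and 29.4 CPM in differentiated myotubes, and 0.188, 0.445, 0.341 and 0.400 CPM in fused myotubes. Both differentiated libraries lay below the 3 WT libraries of that stage, and the difference of -0.74 ± 0.11 (log2, SE) was called (adjusted p = 1.08e-05). In every alternative it was at least as far from 0 as -0.53, but with transcript lengths as an offset the adjusted p was 0.0505. The same libraries differed in cycling markers (3 genes, a sum of 2.94 to 3.35 CPM in Glud1KO and 12.5 to 16.7 CPM in WT) and in the collagen gene Col3a1 (9.06 and 24.3 CPM). They also differed on the first principal component, where Glud1KO lay between WT differentiated and WT fused myotubes as given above. The part of these in the Meg3 difference was not tested. Differences of -0.36 in myoblasts (adjusted p = 0.408) and -0.66 in fused myotubes (adjusted p = 0.358) were not called, at counts of 41 or fewer a library, although the fused groups did not overlap. The myoblast value was -0.17 without the first and -0.58 without the second Glud1KO library. With the length offset the fused value was -2.73 (adjusted p = 0.0111).

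Rian, the next RNA of the cluster and host of snoRNAs and of miR-370, had a smaller peak and kept more of it. WT myoblasts stood at 3.16, 2.85 and 4.14 CPM, differentiated myotubes at 17.4, 19.1 and 15.6 CPM and fused myotubes at 8.22, 4.06, 5.98 and 8.28 CPM. The peak lay above all other WT libraries, while myoblasts and fused myotubes overlapped at their edges. Rian rose by 2.34 ± 0.21 (log2, SE, adjusted p = 9.45e-11), fell by 1.34 (adjusted p = 3.36e-07) and ended 1.00 above myoblasts (adjusted p = 0.000311). In Glud1KO it stood at 0.802, 2.55 and 2.85 CPM in myoblasts, 11.3 and 13.2 CPM in differentiated myotubes, and 6.40, 4.89, 6.18 and 4.53 CPM in fused myotubes. The first 2 of these groups lay wholly below WT, yet the differences of -0.76 ± 0.28 (adjusted p = 0.0840) and -0.50 ± 0.21 (adjusted p = 0.0846) were not called. Without the filter on low counts both were called, with adjusted p of 1.01e-05 and 3.57e-05. The differentiated difference was also called with only the groups compared, and without the third Glud1KO myoblast library the myoblast difference was called at -1.07 (adjusted p = 0.0379). Without the first Glud1KO myoblast library, at 0.802 CPM, it was -0.34 (adjusted p = 0.438), so its size rests on that library.

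Mirg, the last of the 3 RNAs and host of a large miRNA cluster, was close to the detection limit except at 48 h. WT differentiated myotubes held 53, 65 and 68 counts, against 1, 2 and 3 in WT myoblasts and 4, 1, 4 and 4 in WT fused myotubes. Pooled, the ratio of differentiated to myoblast libraries was 34.9, with an exact 95% interval of 15.7 to 96.2, and in Glud1KO it was 18.9, with an interval of 9.40 to 43.2. The rise was called in both (log2 5.03 ± 0.41 in WT, adjusted p = 9.18e-12, and 4.17 ± 0.44 in Glud1KO, adjusted p = 2.02e-09). Glud1KO differentiated myotubes, with 30 and 37 counts, stood at 1.60 and 1.94 CPM, below WT at 2.51, 2.83 and 2.39 CPM, and the difference of -0.54 ± 0.28 was not called (adjusted p = 0.178). In Glud1KO, Mirg was called higher in fused myotubes than in myoblasts by 1.27 (adjusted p = 0.0491), from 17 against 9 pooled counts. That call was lost in 9 of 13 alternatives, among them when any of 5 of the 7 libraries was left out, namely replicates 1 and 3 of the myoblasts and replicates 1, 2 and 3 of the fused myotubes (0.91 to 1.45, adjusted p from 0.0517 to 0.197).

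All 3 non-coding genes of the cluster peaked at 48 h. The WT rise was 4.99 ± 0.14 for Meg3, 5.03 ± 0.41 for Mirg and 2.34 ± 0.21 for Rian (log2, SE). Within a library, Rian gave 2.56 ± 0.62 counts per Meg3 count in WT myoblasts (SD, n = 3), 0.411 ± 0.033 in WT differentiated myotubes (n = 3) and 12.4 ± 4.29 in WT fused myotubes (n = 4). In Glud1KO the same ratio was 1.92 ± 0.88 (n = 3), 0.490 ± 0.060 (n = 2) and 18.6 ± 10.8 (n = 4). The stages did not overlap in this ratio under either label, while the labels overlapped at each stage. At 48 h that overlap was narrow, with WT up to 0.450 and Glud1KO from 0.447. In fused myotubes the ratio rests on 8 to 16 Meg3 counts a library in WT and 3 to 8 in Glud1KO. The ratio of Mirg to Meg3 was 0.0559 in WT myoblasts, 0.0610 in WT differentiated myotubes and 0.310 in WT fused myotubes, where each library, from 0.125 up, lay above both other stages. In Glud1KO it was 0.0927, 0.0709 and 0.688, with a range of 0 to 1.00 in fused myotubes, and outside 48 h it rests on few counts. Meg3-209, the longest annotated Meg3 transcript at 14548 bases, held 34.9% to 35.8% of Meg3 counts in WT differentiated myotubes and 27.8% to 40.7% in WT myoblasts, with overlap. Rian-202 held 56.8% to 62.5% of Rian counts in WT differentiated myotubes, below 67.1% to 88.1% in WT myoblasts but inside the 56.5% to 92.4% of WT fused myotubes.

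Dlk1, the paternally expressed transmembrane protein gene at the other end of the cluster, was at 0 to 7 counts in every library. Pooled over a group, it reached 10 counts in WT myoblasts (0.123 CPM, exact 95% interval 0.0588 to 0.226) and 16 in Glud1KO myoblasts (0.167 CPM, interval 0.0952 to 0.271). It had 5 and 3 counts in WT differentiated and fused myotubes and 1 and 3 in Glud1KO. The ratio of Glud1KO to WT myoblasts was 1.36, with an interval of 0.579 to 3.35, so no genotype difference was detectable there at this depth. Between stages, the ratio of fused myotubes to myoblasts was 0.249 in Glud1KO (interval 0.0464 to 0.869) and 0.313 in WT (0.0553 to 1.22). Without the filter on low counts the edgeR adjusted p of that Glud1KO change was 0.0671. The other paternally expressed genes listed for the cluster were as low: Rtl1 had 3 counts in 1 WT differentiated library and 0 in all others, and Dio3 had at most 1. At 48 h in WT, Dlk1 gave a mean of 0.00171 counts per Meg3 count.

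Peg3, a paternally expressed zinc finger gene, was the second most abundant of the 8 by TPM (153 ± 6.59 in WT myoblasts, SD, n = 3) and had a shallow peak. WT myoblasts stood at 688, 743 and 727 CPM, differentiated myotubes at 1006, 1092 and 1038 CPM and fused myotubes at 609.7, 565, 579 and 608 CPM. The stages did not overlap. Peg3 rose by 0.54 ± 0.045 (log2, SE, adjusted p = 1.48e-11), fell by 0.82 (adjusted p = 7.55e-16) and ended 0.28 below myoblasts (adjusted p = 6.42e-07).

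In Glud1KO, Peg3 stood at 637, 641 and 652 CPM in myoblasts, 980.3 and 939 CPM in differentiated myotubes and 526, 550.2, 555 and 593 CPM in fused myotubes. The first 2 groups lay below WT without overlap. The myoblast difference of -0.16 ± 0.045 was called (adjusted p = 0.0194), but not when replicate 2 or 3 of the WT or replicate 1 or 2 of the Glud1KO myoblasts was left out (-0.14 to -0.16, adjusted p from 0.0612 to 0.0934), nor with transcript lengths as an offset (adjusted p = 0.101). At the later stages the differences were -0.12 (adjusted p = 0.0758) and -0.09 (adjusted p = 0.163). Part of the Peg3 peak was a transcript annotated as a retained intron, Peg3-204, which held 1.80% of Peg3 counts in WT myoblasts, 8.23% in WT differentiated and 1.11% in WT fused myotubes. In CPM the coding transcript Peg3-201 alone went from 706 ± 28.8 to 958 ± 26.5 and 584 ± 20.9 (SD, n = 3, 3 and 4), so the peak was also there without Peg3-204. Retained-intron transcripts of all genes together held 2.55%, 2.93% and 1.73% of counts at the 3 WT stages, and their part in the Peg3-204 share was not tested.

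**Figure D3:**
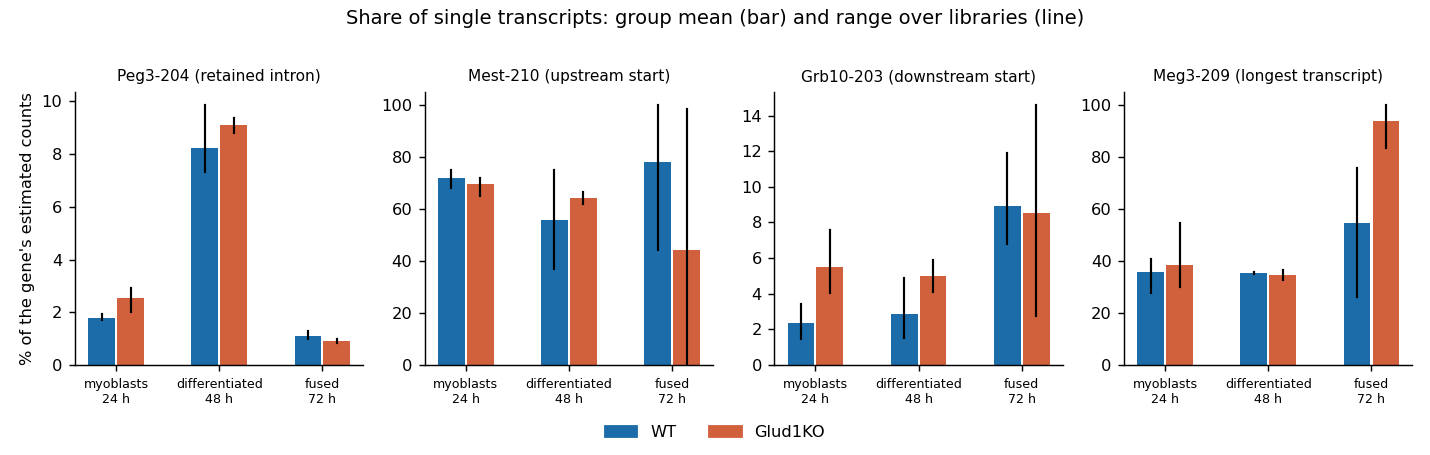
Share of a gene's estimated counts (percent, axes from 0) held by Peg3-204, Mest-210, Grb10-203 and Meg3-209, by stage, WT in blue and Glud1KO in orange; bars are group means and black lines the range over libraries. Peg3-204 is highest at 48 h under both labels, while the ranges of the other 3 transcripts are wide at 72 h, where Mest and Meg3 have few counts.

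Mest, a paternally expressed gene for a protein of the hydrolase fold family and host of miR-335, fell in both steps and had the largest net change of the 7 tested genes from WT myoblasts to fused myotubes. WT myoblasts stood at 177, 182 and 182 CPM, differentiated myotubes at 23.0, 18.6 and 22.6 CPM and fused myotubes at 1.51, 1.14, 1.60 and 1.44 CPM. The stages did not overlap. The log2 change was -3.07 ± 0.055 (SE, adjusted p = 9.8e-27) in the first step, -3.90 (adjusted p = 1.35e-21) in the second and -6.97 over both. Copg2 overlaps Mest by 912 bases on the opposite strand and stood at 47.8, 49.1 and 54.4 CPM at the 3 WT stages, and reads from the shared bases cannot be told apart where the counting is not stated to use strand.

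Mest was lower under the Glud1KO label at 48 h. Glud1KO differentiated myotubes stood at 8.88 and 10.8 CPM, well below the WT libraries, and the difference of -1.12 ± 0.090 (log2, SE) had an adjusted p of 4.96e-10. It ran from -1.27 to -0.99 over the alternatives and was called in each. In myoblasts Glud1KO stood at 188, 190.4 and 199.5 CPM, above WT without overlap, but the difference of 0.09 was not called (adjusted p = 0.182). In fused myotubes the libraries at 1.76, 1.56, 1.79 and 1.60 CPM overlapped WT (0.23, adjusted p = 0.483). The cycling markers given beside Meg3 and the first principal component moved with the 48 h result too, and these markers summed to 734 to 779 CPM in WT myoblasts. Of 7 fibroblast markers, which summed to 24.0 to 26.8 CPM in WT and 8.02 to 12.3 CPM in Glud1KO at that stage, 3 were tested and 2 were at 0 in each library of both groups. Nearly all of the sum was Col3a1. Col3a1 and Ly6a were called lower, while Pdgfra stood at 0.366 and 0.474 CPM and was not called, nor did the untested Thy1 (0.125 and 0.265 CPM) and Pi16 (0.217 and 0.317 CPM) have lower means in Glud1KO. The part of all these in the Mest difference was not tested.

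Mest counts were divided between transcripts from the upstream and the downstream start. Those from the upstream start held 71.7% ± 3.60 (SD, n = 3) of Mest counts in WT myoblasts and 69.8% ± 3.91 (n = 3) in Glud1KO myoblasts, and those from the downstream start 28.2% and 30.0%. In WT differentiated myotubes the upstream share ranged from 36.8% to 75.1%, and in Glud1KO from 62.0% to 66.4%. The shares overlapped between labels and between these stages, and they rest on the estimated division of reads that fit several transcripts. Fused myotubes, at 42 or fewer Mest counts a library, are too thin for a share.

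Grb10, a maternally expressed adaptor that binds the insulin and IGF1 receptors, changed least in the first step. WT myoblasts stood at 122, 127 and 114 CPM, differentiated myotubes at 108, 109 and 117 CPM and fused myotubes at 68.3, 67.1, 64.2 and 68.5 CPM. The first 2 stages overlapped and the last lay below both. The first step, -0.11 ± 0.044 (log2, SE), was called (adjusted p = 0.0192) but lost the call in 9 of 14 alternatives, among them without the first or second library of either group (-0.08 to -0.10, adjusted p from 0.0586 to 0.115), and the second, -0.73, was called in all (adjusted p = 2.08e-14).

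In Glud1KO, Grb10 stood at 115, 104 and 112 CPM, then 102.0 and 102.3 CPM, then 73.3, 73.6, 77.7 and 76.1 CPM. Fused Glud1KO libraries all lay above the fused WT libraries, and Grb10 was higher there by 0.16 ± 0.043 (log2, SE, adjusted p = 0.0108, or 0.0599 with transcript lengths as an offset). In myoblasts the groups overlapped and the difference of -0.13 ± 0.043 had an adjusted p of 0.0501. It was called in 6 of 14 alternatives: with DESeq2 size factors, in the DESeq2 test, at a mean CPM of at least 1, with only the groups compared, and without the third WT (-0.17, adjusted p = 0.0221) or the first Glud1KO library (-0.16, adjusted p = 0.0360). In differentiated myotubes the value was also -0.13 (adjusted p = 0.0670). In Glud1KO the first step was -0.11 (adjusted p = 0.0432), a call lost in 10 alternatives, among them without replicate 1 or 3 of the myoblasts or either differentiated library (-0.08 to -0.13, adjusted p from 0.0829 to 0.186). The transcript from a downstream start, Grb10-203, held 1.44% to 3.44% of Grb10 counts in WT myoblasts and 6.78% to 11.9% in WT fused myotubes, without overlap. In Glud1KO these ranges were 4.03% to 7.57% and 2.72% to 14.6%.

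Set side by side, the genotype label called at most 2 of the 7 tested genes at a stage. In myoblasts 2 were called, both lower (H19 and Peg3), where 11.6% of all genes were called (4.86% higher, 6.69% lower). In differentiated myotubes 2 were called, both lower (Meg3 and Mest), where 25.2% of all genes were called (11% higher, 14.1% lower). In fused myotubes Grb10 alone was called, higher, where 13% of all genes were called (6.32% higher, 6.72% lower). No gene was called at more than 1 stage, and whether the effects differ between stages is tested below. The plot of genotype effects shows that Mest at 48 h lay farthest from 0 among the called values.

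**Figure D4:**
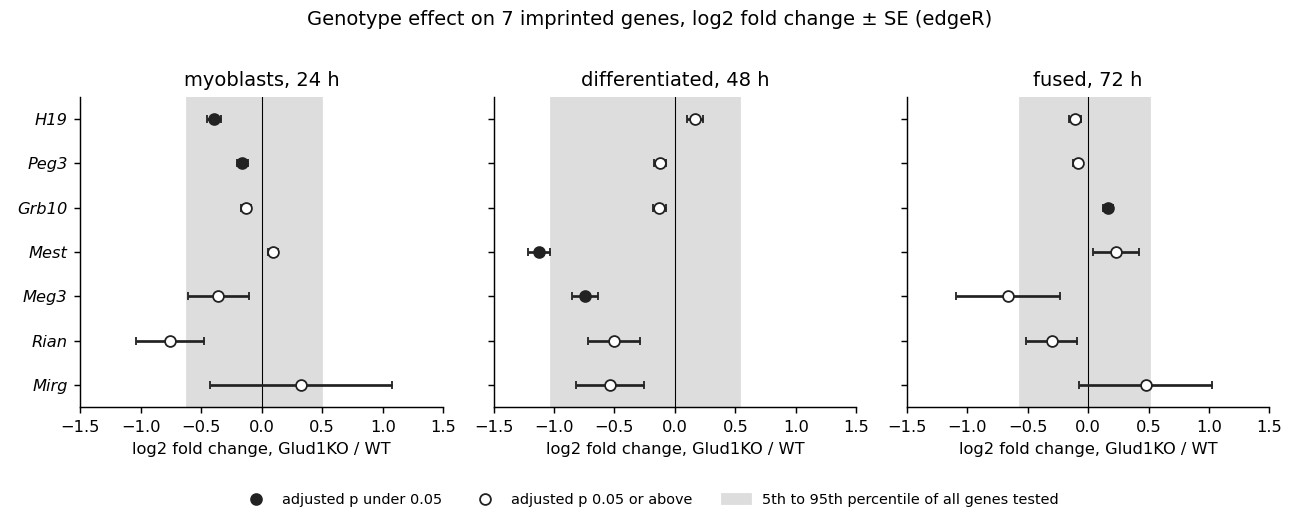
log2 fold change of Glud1KO over WT (horizontal axis) for the 7 tested genes at each stage, with SE bars; filled points passed an adjusted p of 0.05, and grey spans the 5th to 95th percentile of all tested genes. Filled points are H19 and Peg3 at 24 h, Mest (-1.12) and Meg3 (-0.74) at 48 h, and Grb10 (0.16) at 72 h.

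Whether the genotype effect itself changed between stages was tested as an interaction. From myoblasts to differentiated myotubes it changed for H19, by 0.56 ± 0.086 (log2, SE, adjusted p = 2.42e-05), and for Mest, by -1.21 ± 0.10 (adjusted p = 1.53e-09), where 19.1% of all genes were called (7.78% higher, 11.3% lower). From differentiated to fused myotubes it changed for H19 (-0.28, adjusted p = 0.0202), Mest (1.35, adjusted p = 5.66e-05) and Grb10 (0.29, adjusted p = 0.00334), where 14.8% were called (8.27% higher, 6.53% lower). From myoblasts to fused myotubes it changed for H19 (0.29, adjusted p = 0.0145) and Grb10 (0.30, adjusted p = 0.00193), where 10.3% were called (5.75% higher, 4.55% lower). The H19 call between differentiated and fused myotubes was lost without the second Glud1KO differentiated library (-0.20, adjusted p = 0.177), and with the length offset it and the Grb10 call had adjusted p of 0.0541 and 0.0853. That between myoblasts and fused myotubes was lost without the third WT (0.25, adjusted p = 0.0567) or the first Glud1KO myoblast library (0.26, adjusted p = 0.0512). For Meg3, called at 48 h alone, no change of the effect was called (-0.39 ± 0.28 from myoblasts to differentiated myotubes, adjusted p = 0.380), so its effect was not shown to differ between stages. That value was -0.17 without the second Glud1KO myoblast or the first Glud1KO differentiated library and -0.65 without the second Glud1KO differentiated library, and it was not called in any alternative. For Peg3 the change was 0.04 ± 0.068 (adjusted p = 0.766), which was not called either.

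Among 60 other imprinted genes found in the files, of 62 listed, 42 were tested. In WT 27 rose and 10 fell from myoblasts to differentiated myotubes (88.1% called, beside 85% of all genes), 17 rose and 18 fell from there to fused myotubes (83.3%, beside 75.1%), and 28 rose and 10 fell over both steps (90.5%, beside 85.5%). Their median log2 change in the first step was 0.62, beside 0.02 over all genes. In the H19-Igf2 and Kcnq1 region all 7 tested neighbours rose in the first WT step, and 4 fell and 2 rose in the second. Cdkn1c, a maternally expressed inhibitor of cyclin-dependent kinases, stood at 0.739 ± 0.038, 7.84 ± 0.72 and 3.24 ± 0.16 CPM at the 3 WT stages (SD, n = 3, 3 and 4). Kcnq1ot1, a paternally expressed silencing RNA, stood at 3.43 ± 0.42, 12.2 ± 0.56 and 1.70 ± 0.51 CPM.

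Neighbours of the other members did not always follow them. Beside Peg3, Zim1 rose by 1.71 in the first WT step and fell by 0.76 in the second, but Usp29 fell by 0.50 in the first. Beside Grb10, which hardly moved in the first step, Ddc, the aromatic amino acid decarboxylase gene, rose by 3.74 and the actin nucleator gene Cobl by 2.11. Peg10, a retrotransposon-derived gene, is on the same chromosome as Mest but is not its neighbour. It rose by 2.36 and then fell by 1.09. By genotype label, the 42 genes had 7 calls in myoblasts (4 higher, 3 lower, 16.7% called beside 11.6% of all genes), which fell to 2 without the third WT and to 3 without the first or the second Glud1KO myoblast library. They had 12 calls in differentiated myotubes (5 higher, 7 lower, 28.6% beside 25.2%) and 8 in fused myotubes (6 higher, 2 lower, 19% beside 13%). Peg10 was higher in Glud1KO in fused myotubes, at 309 ± 8.30 against 200.4 ± 12.3 CPM (SD, n = 4 each, log2 difference 0.62, adjusted p = 3.55e-12), and in myoblasts (0.26, adjusted p = 0.000304), but was not called in differentiated myotubes (-0.05, adjusted p = 0.467). In differentiated myotubes the largest falls among the 42 were those of the paternally expressed Peg12 (-1.14 ± 0.23, adjusted p = 0.000538), at 1.65 against 0.742 CPM, and of Asb4 (-0.90 ± 0.20, adjusted p = 0.00159), at 3.64 against 1.95 CPM in WT and Glud1KO. Peg12 was higher in Glud1KO myoblasts (0.24, adjusted p = 0.0143) and not called in fused myotubes (0.16, adjusted p = 0.7098). Asb4 was lower in fused myotubes (-0.47, adjusted p = 0.00303) and not called in myoblasts (-0.48, adjusted p = 0.127). Ndn, a paternally expressed gene of the Snrpn cluster, was higher at all 3 stages, by 0.21 (adjusted p = 0.0169), 0.28 (adjusted p = 0.00823) and 0.39 (adjusted p = 1.24e-05).

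**Figure D5:**
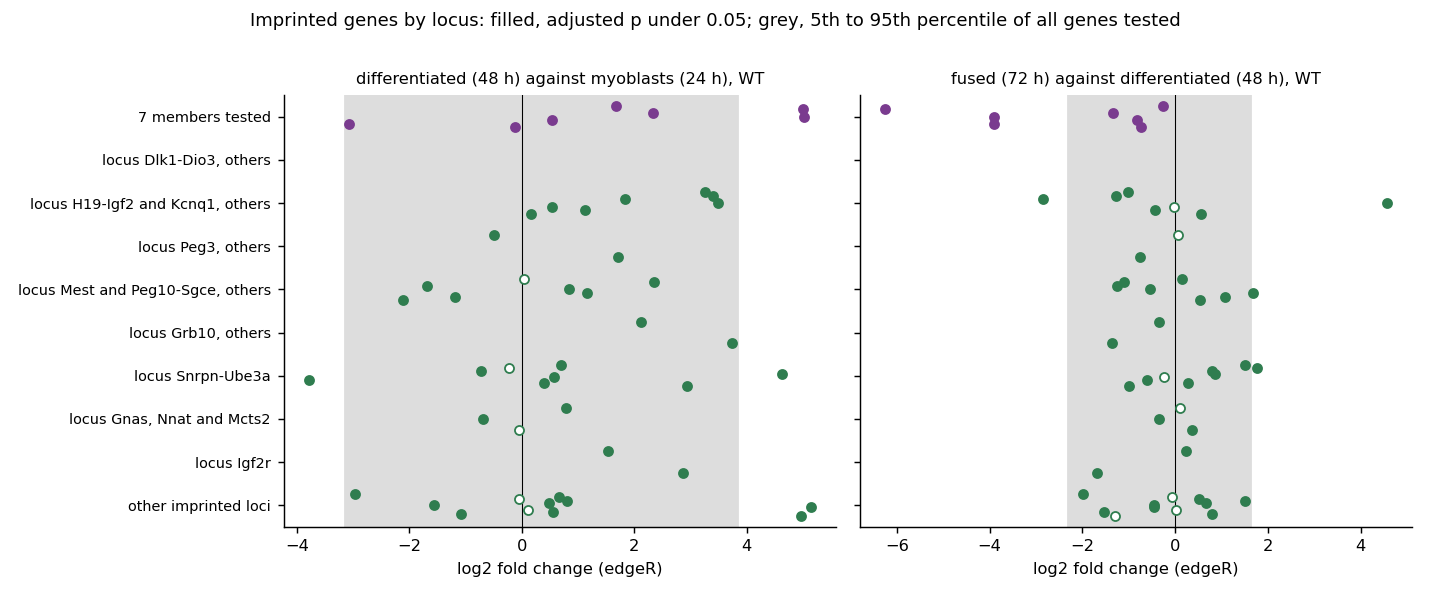
log2 fold change in WT of imprinted genes grouped by locus, from myoblasts to differentiated myotubes (left) and from differentiated to fused myotubes (right); each point is a gene, purple for the 7 tested members and green for others, filled where the adjusted p was under 0.05, with grey for the 5th to 95th percentile of all tested genes. On the right, the 7 members all lie below 0, while the other loci hold genes on both sides (17 higher, 18 lower).

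To place the profiles among all genes, the 6 group means of log2 CPM were centred for each gene and compared by root mean square difference over the 6 groups, as a description without a test. The gene closest to H19 was Srgap3 (0.074), to Meg3 Gm35019 (0.27), to Rian Igf2os (0.13), to Peg3 Stox2 (0.044), to Mest Avpr1a (0.14), to Grb10 Dmrt2 (0.043) and to Mirg, which has few counts, Cngb1 (0.17). For Meg3 the next gene, Ptgis, was already at 0.86. Between members the closest profiles were those of Peg3 and Grb10 (0.29) and of H19 and Rian (0.44), while Meg3 and Rian, neighbours on chromosome 12, were 2.01 apart.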

How the data were processed

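RNA was measured in 19 libraries. Per the file headers, the authors deposited kallisto output for each library: estimated counts, TPM and lengths of 121843 transcripts. The submitters' processing notes name bcl2fastq 2.20, fastp 0.20.0, kallisto 0.46.1, edgeR 3.36 and build GRCm38.p6, without parameters. The deposited effective lengths entered only the offset alternative. Transcripts were assigned to genes with GENCODE M21 (121018 matched, and the other 825 held 0.255% to 0.507% of counts and were left out). Expected counts were summed per gene and rounded. TPM deposited by the authors keeps no depth and served for levels between genes and for the check of Glud1.

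edgeR 4.0.16 in R 4.3.3 fitted all 19 libraries at once with 1 coefficient per group, TMM scaling, filterByExpr and quasi-likelihood tests, adjusted by Benjamini-Hochberg over 15123 genes. A call is an adjusted p under 0.05. The SE is the absolute log2 fold change over the root of F. CPM uses TMM-scaled library sizes. DESeq2 1.42.0, other scalings and filters, a length offset, a replicate block and each left-out library were the alternatives. The fit was tested on simulated data for the myoblast genotype comparison alone. There edgeR recovered 39, 49, 48 and 47 of 50 genes changed 1.25-, 1.5-, 2- and 4-fold, and called 8 unchanged genes. The changed genes had a mean CPM above 1 and all genes had the same spread. Recovery at low counts, in the group of 2 libraries and for interactions was not tested. Exact Poisson and binomial 95% intervals cover counting error only, since PCR reads are not independent molecules, and 3 counts is the limit that a count of 0 allows. Replicates differed by more than sampling noise (chi-square per degree of freedom 2.07 to 7.06).

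All members are named. Of the other lists, the rule named in each comparison up to 3 rises and 3 falls, by size, among called genes with a mean CPM of at least 1 and no overlap, with tested neighbours of 3 loci. Copg2, Cobl, Rtl1, Dio3, Dnmt1, Irs2, Igf1r and single marker genes lie outside it and were named after their values were seen. The members, lists and rules were chosen with earlier results of these data known. Promoters and miRNAs were matched by symbol in RefSeq tables, with motifs searched on both strands.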

Additional observations from a re-analysis of the deposited data

Results flagged for a closer look

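The effect of the genotype label on 3 of the 8 genes differed between stages by an interaction test in edgeR. All values here are differences between 2 log2 fold changes of Glud1KO over WT, with adjustment over 15123 genes. For H19 the effect differed by 0.56 in differentiated myotubes against myoblasts, by -0.28 in fused against differentiated myotubes and by 0.29 in fused myotubes against myoblasts. For Mest it was -1.21 from myoblasts to differentiated myotubes and 1.35 from differentiated to fused myotubes. For Grb10 it was 0.29 from differentiated to fused myotubes and 0.30 from myoblasts to fused myotubes. These 7 differences come from 21 tests on 7 genes, and they share libraries, so they are not independent of each other. No library stood apart within its group for any member in the 16 sets of 4 libraries that could be checked.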

How the results depend on the processing

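Of 1316 values of the 7 tested genes under alternatives, over 84 results, 1257 kept their side of the threshold, 40 lost a call and 19 gained one. Of called values 0 changed sign, while values that stayed uncalled are among the 1257 whatever their sign. As an example, the uncalled Mirg difference in myoblasts went from 0.33 to -0.76 with the length offset. With that offset, members called went from 2 to 1 in myoblasts, 2 to 1 in differentiated myotubes and 3 to 1 for the change of the genotype effect from differentiated to fused myotubes. Other imprinted genes called with it went from 7 to 2, from 12 to 6 and, for the change of the effect from myoblasts to fused myotubes, from 6 to 3. In differentiated myotubes 4 members were called with library size alone and 4 with no filter. With 1 library left out, members called were 1 to 3 in myoblasts, 2 to 3 in differentiated myotubes and, for the change of the effect from myoblasts to fused myotubes, 1 to 2, and other imprinted genes called in myoblasts were 2 to 6. Only 1 member was called in myoblasts without the second WT or the second Glud1KO myoblast library, and 1 for that change without the third WT or the first Glud1KO. Other imprinted genes called in myoblasts fell to 2 without the third WT and to 3 without the first or second Glud1KO. The causes were not tested. With the offset, calls over all genes went from 1747 to 591, 3810 to 2145 and 1972 to 820 at the 3 stages and from 2890 to 1458, 2238 to 977 and 1557 to 670 for the 3 changes of the effect, and fitting only the groups compared gave 2625 in myoblasts. Library size alone moved the median of all genes by more than 0.1, to -0.23 and -0.33 from WT myoblasts to differentiated and fused myotubes and to -0.31 and -0.35 in Glud1KO. In the DESeq2 test the median was 0.21 and 0.22 for the first step in WT and Glud1KO and -0.11 for the second in WT. Those medians are over other sets of genes (19763, 20263 and 19264, in place of 15123). With DESeq2 size factors on the 15123 genes they were 0.06, 0.07 and -0.04. Of all genotype calls, 42.1% were higher in myoblasts (29.3% with DESeq2 size factors, 27.5% in DESeq2, 19.3% with the offset) and 43.9% in differentiated myotubes (27.0% with library size alone). For the changes of the effect the main shares were 40.7%, 55.9% and 55.8%, and library size alone gave 26.3% and 75.0% for the first 2, DESeq2 size factors 50.8% for the first and 65.9% for the last, the DESeq2 test 52.5% for the first and the offset 66.4% for the last. In the first step of Glud1KO 49.3% of calls were higher, and 38.8% with library size alone. Replicate numbers did not pair the libraries: same-numbered libraries deviated with a median correlation of -0.0027, 0 of 41 pairs were over 0.1, and 2 of 19 libraries matched best with their own number. With the replicate block, 3 members were called in differentiated myotubes and 6 in the first step of Glud1KO, against 2 and 7, and 106 of 108 values kept their side. Depth limits Dlk1, Mirg, and Meg3 outside 48 h.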

Other observations

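Of 15 listed genes that maintain imprints, 12 were tested, and in WT 5 rose and 6 fell from myoblasts to differentiated myotubes, a share of 91.7% called that is near the 85% of all genes. Uhrf1, which recruits the maintenance DNA methyltransferase to replicated DNA, went from 171 ± 2.00 CPM in WT myoblasts (SD, n = 3) to 3.83 ± 0.73 in differentiated (n = 3) and 1.37 ± 0.41 in fused myotubes (n = 4). Dnmt1, that methyltransferase, went from 205 ± 4.63 to 31.7 ± 2.24 and 36.3 ± 2.69 CPM in the same groups. Zfp57, a zinc finger protein that protects methylated imprints, peaked at 48 h, with 12.4 ± 0.58, 31.1 ± 3.09 and 3.49 ± 0.46 CPM. Tet1, an enzyme that oxidises methylated cytosine, rose by 2.16 and then by 2.29 on the log2 scale. Cycling markers were lower at 48 h than at 24 h, as given above, and their part in these changes was not tested.

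Of 12 genes listed for insulin and IGF signalling, all tested, 6 were lower and 0 higher in Glud1KO than in WT differentiated myotubes. Of all genes, 25.2% were called there (11% higher, 14.1% lower). The list is not of the signalling pathway alone, since it also holds Hmga2, Lin28b, Igf2bp1, Igf2bp2 and Igf2bp3. Hmga2, a chromatin protein gene that activates Igf2bp2, differed by -1.24 ± 0.13 (log2, SE, adjusted p = 5.18e-08), Irs2 by -0.64 ± 0.15 (adjusted p = 0.00240) and Igf1r by -0.34 ± 0.072 (adjusted p = 0.000700). Between the same libraries cycling markers summed to 2.94 to 3.35 CPM in Glud1KO and 12.5 to 16.7 CPM in WT, and Col3a1 stood at 9.06 and 24.3 CPM. Of the 4 listed markers of muscle precursors, Pax7 stood at 5.63 and 10.6 CPM, Myf5 at 55.2 and 63.3 and Myod1 at 657 and 814. Des went the other way, at 3150 and 2941 CPM, and the sums of the 4 overlapped (3679 to 4056 and 3664 to 3961 CPM). The part of all these markers in these differences, and in that of Plagl1, was not tested. Plagl1, a paternally expressed zinc finger gene, fell with stage, from 977 ± 43.2 to 125 ± 9.21 and 31.5 ± 1.00 CPM in WT (SD, n = 3, 3 and 4). In Glud1KO differentiated myotubes it differed by -0.87 ± 0.063 (adjusted p = 6.76e-11). The change of its genotype effect from myoblasts to differentiated myotubes was -0.75 (adjusted p = 9.02e-08). Zdbf2, an imprinted gene, rose by 5.14 in the first WT step, from 9.20 ± 0.15 to 326 ± 16.1 CPM (n = 3 each).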
